A study of Homo sapiens with 4 samples.

Results

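A set of 9 transcription factors of the melanocyte lineage, MITF, TFEB, TFE3, SOX10, SOX9, SOX5, PAX3, LEF1 and TFAP2A, were followed by RNA sequencing in human melanoma cells. They were taken by gene symbol, with earlier results of these data known, and all 9 were found once each among the 18175 genes and loci of the deposited table. The melanoma cell lines A375 and SK-MEL-28 were each given either siNC, whose name reads as a negative control, or siLINC01291, which targets the long non-coding RNA LINC01291. The treatment label also names EL without saying what it is or which cells received it. Each of the 4 groups is 1 library, so a difference within a line has no replicate check, and nothing in the labels says whether more than 1 siRNA sequence was used. All cells were grown alike in serum-containing medium, and the sequences of the siRNAs are not given in the sources used here.

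Melanocytes arise from the neural crest, and MITF, a basic helix-loop-helix leucine zipper factor, is the factor that switches on their pigment genes. SOX10, PAX3 and the Wnt effector LEF1 bind the promoter of the melanocyte form of MITF, together with CREB, which acts downstream of cyclic AMP. TFEB and TFE3 are close relatives of MITF that bind the same E-box sequences and are best known for driving lysosome and autophagy genes. In melanoma, cells with high MITF are usually pigmented and differentiated, and cells with low MITF often carry receptors such as AXL, EGFR and NGFR instead.

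The libraries held between 29351240 and 31815336 counts over the listed genes. LINC01291 itself was at 34.5% of its siNC level in A375 (95% exact binomial interval 30.2 to 39.4%) and at 44.5% in SK-MEL-28 (39.7 to 49.7%); these and all other intervals within a pair of libraries cover counting error only. The label of melanoma cells was checked against 7 markers of the melanocyte lineage. All 7 had at least 1 FPKM (fragments scaled to transcript length and library depth) in both SK-MEL-28 libraries, but 3 of 7 did in A375, namely PMEL, S100B and SOX10. In A375 the defining pigment markers MLANA, TYR, DCT and TYRP1 were all under 1 FPKM. Of other cell types, no endothelial or leukocyte marker of 7 was listed in the table. The keratinocyte marker KRT14 stood at 6.16 and 7.32 FPKM in A375 and at 0.0451 and 0.0151 FPKM in SK-MEL-28. The keratinocyte marker KRT10 stood at 27.1 and 27.7 FPKM in A375 and at 18.0 and 19.9 FPKM in SK-MEL-28. KRT5, KRT1 and DSG3 were not listed, and LUM was the 1 fibroblast marker of 5 listed, between 3.25 and 8.07 FPKM. Their part in the results below was not tested.

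The DNA in front of the melanocyte form of MITF was searched for the core letters of some of these factors and of CREB. RefSeq (GRCh38.p14) lists 3 starts for MITF in the table used, and the most downstream one belongs to that melanocyte form. The 250 bases before it, at chr3:69936342-69936591 on the + strand, are printed with a TCF/LEF and a CREB motif in capitals.

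MITF, before the melanocyte start: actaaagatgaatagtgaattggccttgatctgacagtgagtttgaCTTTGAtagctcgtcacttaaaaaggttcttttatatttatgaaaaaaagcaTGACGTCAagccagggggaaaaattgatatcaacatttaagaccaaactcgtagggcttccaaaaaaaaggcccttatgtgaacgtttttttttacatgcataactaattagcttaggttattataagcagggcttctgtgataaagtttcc

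The first capitals, CTTTGA, are the core letters bound by LEF1 and its relatives, and the second, TGACGTCA, are the cyclic AMP response element bound by CREB. Over all 35116 RefSeq promoters of 300 bases, searched on both strands, CTTTGA was present in 12.9% and TGACGTCA in 1.85%. SOX core letters (ACAAAG or ACAAT) were not in this window, but were present before both other MITF starts. The PAX homeodomain core ATTA, which 50.2% of all promoters hold, was found here too and is not marked. A match is a description of letters and not a bound site. The counts are per gene, so the 3 starts of MITF could not be told apart, and the FPKM of MITF were divided by a length of 7151 bases that covers all its forms.

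MITF binds a version of the E-box whose core is TCATGTG. That core stands shortly before the start of the 3 classical pigment enzymes, and it is shown here because these genes were barely detected in A375.

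TYR: agaaaagtcagTCATGTGcttttcagagga

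TYRP1: ttggaagggaaTCATGTGctgatcaagtcc

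DCT: tgcactttgggTCATGTGctaatgatgagg

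These 30-base windows (RefSeq, GRCh38.p14) lie at chr11:89177759-89177788 on the + strand for TYR, chr9:12693229-12693258 on the + strand for TYRP1 and chr13:94479799-94479828 on the - strand for DCT, with the core in capitals. Among 12 of 15 listed pigment genes with a promoter in the table, 5 held TCATGTG on either strand, which is present in 2.92% of all promoters. Since this core is known from such pigment genes, the share among them is no independent evidence. The shares are not like for like either, since some genes have several promoters.

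The levels of the 9 factors ran from 0.00863 FPKM for SOX9 to 147 FPKM for SOX10. SOX10, the neural crest factor needed for the whole melanocyte lineage, was the highest of the 9 in every library, at 80.1 FPKM in A375 siNC, 118 in A375 siLINC01291, 127 in SK-MEL-28 siNC and 147 in SK-MEL-28 siLINC01291. Only 0.941 to 2.35% of listed genes lay above it. At the other end, TFEB lay between 0.211 and 0.364 FPKM, with 44 to 72 counts a library. SOX9 was lowest of all in SK-MEL-28.

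**Figure D1:**
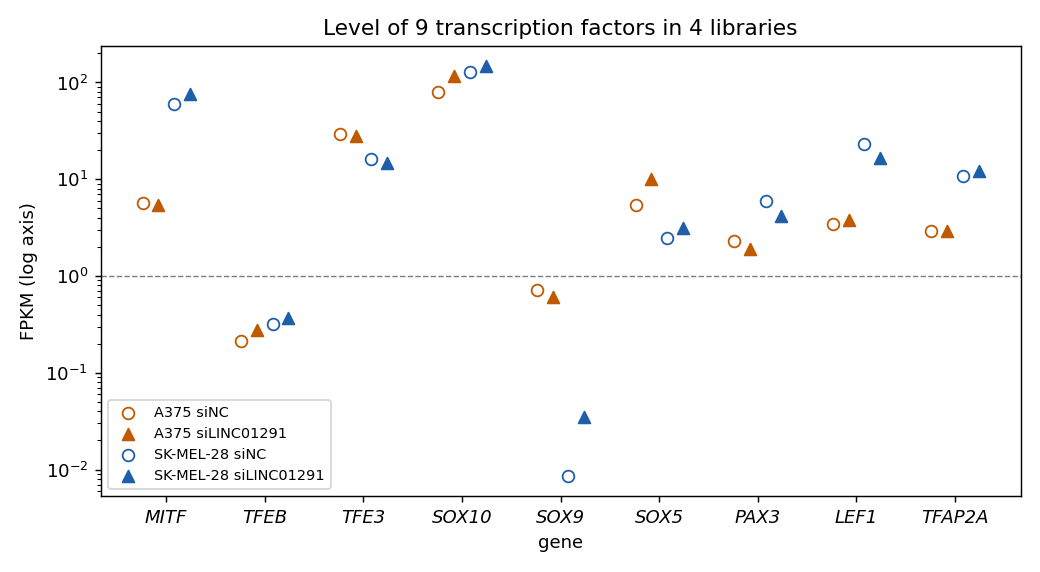
FPKM on a log axis for the 9 factors (x axis); open circles are siNC and filled triangles siLINC01291 libraries, A375 in orange and SK-MEL-28 in blue, 1 library per symbol, and the dashed line is 1 FPKM. SOX10 was the highest in all 4 libraries, MITF, LEF1, PAX3 and TFAP2A were higher in SK-MEL-28, TFE3, SOX5 and SOX9 were higher in A375, and TFEB stayed under 1 FPKM throughout.

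Between SOX10 and the low members, the order differed by line. In A375, SOX10 was followed by TFE3, then MITF and SOX5, whose ranges over the 2 libraries overlapped (5.48 to 5.68 and 5.46 to 10.1 FPKM), and then by LEF1, TFAP2A, PAX3, SOX9 and TFEB. In SK-MEL-28 the order was SOX10, MITF, LEF1, TFE3, TFAP2A, PAX3, SOX5, TFEB and SOX9. The closest neighbours there were LEF1 and TFE3, with a lowest value of 16.6 for LEF1 and a highest of 16.2 FPKM for TFE3. With 2 libraries a line, which differ in treatment, such ranges are only a rough measure of spread.

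The comparison of SK-MEL-28 with A375 asked how the lines differ in lineage factors. All 7 factors that were tested differed: MITF, LEF1, TFAP2A, PAX3 and SOX10 were higher in SK-MEL-28, and SOX5 and TFE3 were lower (quasi-likelihood test of edgeR, p-values adjusted by Benjamini-Hochberg over 13501 genes, treatment as a term). This count has to be read against the background, since 72.4% of all tested genes passed the same test, 36.1% higher and 36.3% lower in SK-MEL-28. The median size of the difference was 1.42 on the log2 scale for the 7 factors and 0.68 for all tested genes. Only 1 residual degree of freedom per gene stands behind these p-values, beside 5.31 prior degrees of freedom that the fit shares over all genes. That residual is how far the line difference varied between the siNC and siLINC01291 pairs, and not a spread of replicates. A lower share of expressing cells and less RNA in each cell cannot be told apart in bulk RNA. All 7 factors had an FPKM of at least 1.91 in each of the 4 libraries, so none entered the test through 1 line alone. TFEB and SOX9 were under the filter, which kept genes reaching 1 FPKM in 2 or more libraries, and are described apart.

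Of the 7 factors past the filter, MITF differed most. It stood at 5.68 and 5.48 FPKM in the A375 siNC and siLINC01291 libraries and at 60.6 and 75.8 FPKM in those of SK-MEL-28. The lines did not overlap, and SK-MEL-28 was 13.6-fold higher (log2 difference 3.77, SE 0.12, adjusted p = 1.74e-06, edgeR). A difference at least this large was seen in 9.09% of the tested genes.

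TFE3 went the other way within the same family. Its level was 29.1 and 28.1 FPKM in A375 and 16.2 and 14.7 FPKM in SK-MEL-28, siNC first, which was 1.65-fold higher in A375 (log2 difference -0.72, SE 0.09, edgeR adjusted p = 0.000447). Differences this large were common, at 47.9% of tested genes. TFEB had 44 and 59 counts in A375 and 64 and 72 in SK-MEL-28; tested without the filter it was higher in SK-MEL-28 (log2 difference 0.69, SE 0.23, edgeR adjusted p = 0.0237). The leading member of the family was not the same in both lines. TFE3 made up 83.1 and 83.0% of the summed FPKM of MITF, TFE3 and TFEB in A375, whereas MITF made up 78.5 and 83.4% in SK-MEL-28.

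LEF1, which carries the Wnt signal to DNA together with beta-catenin, stood at 3.45 and 3.83 FPKM in A375 and at 23.3 and 16.6 FPKM in SK-MEL-28. It was 6.06-fold higher in SK-MEL-28 (log2 difference 2.60, SE 0.16, edgeR adjusted p = 2.07e-05). The fold depended on the pair, at 7.68 between the siNC libraries (95% exact binomial interval 7.03 to 8.40) and 4.98 between the siLINC01291 libraries (4.57 to 5.43). TFAP2A, an AP-2 factor that binds many melanocyte enhancers alongside MITF, stood at 2.89 and 2.91 FPKM in A375 and at 10.8 and 12.2 FPKM in SK-MEL-28. It was 4.44-fold higher there (log2 difference 2.15, SE 0.10, edgeR adjusted p = 6.68e-06).

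PAX3, a paired-box factor that specifies melanoblasts and acts on the MITF promoter with SOX10, stood at 2.30 and 1.91 FPKM in A375 and at 5.96 and 4.21 FPKM in SK-MEL-28 (2.68-fold higher, log2 difference 1.42, SE 0.11, edgeR adjusted p = 6.24e-05). SOX10 differed least of the factors higher in SK-MEL-28, 1.57-fold (log2 difference 0.65, SE 0.10, edgeR adjusted p = 0.00115). A difference of that size was seen in 51.8% of tested genes. SOX10 stood at 118 FPKM in the A375 siLINC01291 library and at 127 in the SK-MEL-28 siNC library. These libraries were further apart in normalised CPM (counts over library size, scaled by TMM factors), at 444 and 562.

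SOX5, a SOX factor without an activation domain that can dampen SOX10 activity at melanocyte promoters, stood at 5.46 and 10.1 FPKM in A375 and at 2.45 and 3.15 FPKM in SK-MEL-28. It was 2.39-fold higher in A375 (log2 difference -1.26, SE 0.14, edgeR adjusted p = 0.000277). The difference was 1.96-fold between the siNC libraries (95% exact binomial interval 1.80 to 2.13) and 2.79-fold between the siLINC01291 libraries (2.60 to 2.99). SOX9, a relative of SOX10 known from melanocytes and cartilage and often opposed to SOX10 in melanoma, was close to its detection limit in SK-MEL-28. Its counts were 88 and 76 in A375 and 1 and 4 in SK-MEL-28. The ratio of A375 to SK-MEL-28 was 73.6 for the siNC pair, with a counting interval of 12.9 to 2939, and 15.3 for the siLINC01291 pair (5.72 to 57.4). The smallest FPKM sum of any listed gene over the 4 libraries was 1.00. SOX9 reached that sum through A375 alone, at 0.723 and 0.606 FPKM, and so had to come out lower in SK-MEL-28. Without the filter its log2 difference was -4.69 (SE 0.46), which rests on the 1 and 4 counts in SK-MEL-28.

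**Figure D2:**
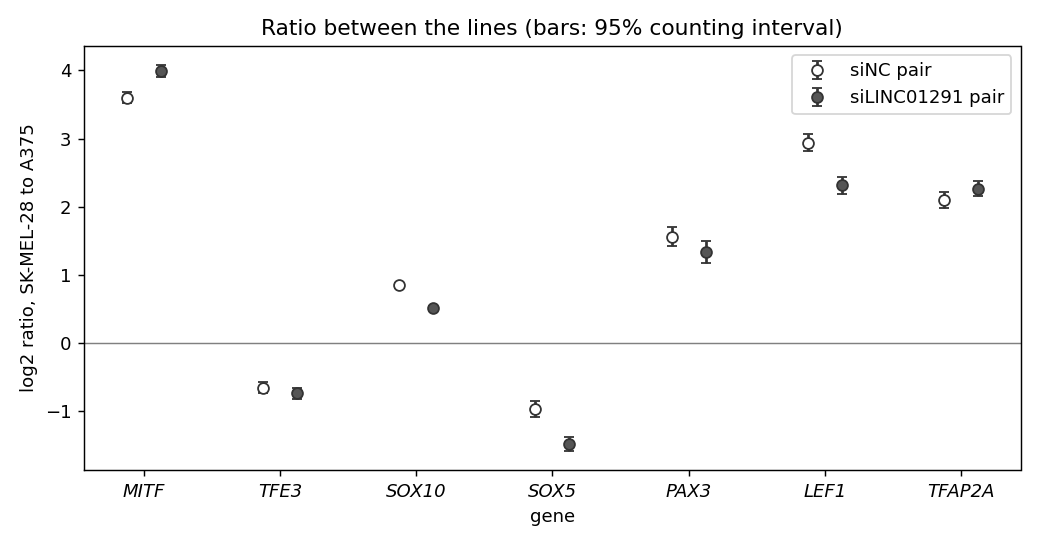
Log2 ratio of SK-MEL-28 to A375 in normalised counts for the 7 factors with at least 1 FPKM, for the pair of siNC libraries (open) and the pair of siLINC01291 libraries (filled), with 95% exact binomial intervals for counting error as bars. The signs were the same in both pairs for every factor drawn, from 3.60 and 3.99 for MITF down to -0.97 and -1.48 for SOX5.

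Genes that these factors are known to control separated the lines too, most of all the pigment genes. All 15 listed pigment genes were tested and all 15 were higher in SK-MEL-28, but 10 of them reached 1 FPKM in SK-MEL-28 alone and therefore had to differ. The other 5, MC1R, PMEL, RAB27A, RAB38 and MYO5A, were expressed in both lines and had a median log2 difference of 2.79, against 0.04 for all tested genes expressed in both. The melanosome matrix protein PMEL stood at 1.64 and 2.13 FPKM in A375 and at 804 and 1043 FPKM in SK-MEL-28. Tyrosinase (TYR), whose promoter window is printed above, stood at 0.112 and 0.0846 FPKM in A375 and at 77.6 and 88.2 FPKM in SK-MEL-28. The enzyme DCT stood at 0.390 and 0.486 FPKM in A375 and at 163 and 164 FPKM in SK-MEL-28. TYRP1, whose window is also printed, was low in SK-MEL-28 too, at 1.34 and 1.83 FPKM, against 0.147 and 0.0503 FPKM in A375.

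Of 14 tested genes of other kinds known as MITF targets, 4 (BCL2A1, PPARGC1A, BIRC7 and SNAI2) reached 1 FPKM in SK-MEL-28 alone and had to differ. Of the 10 expressed in both lines, 7 were higher and 2 lower in SK-MEL-28, with a median log2 difference of 0.67. Over all tested genes expressed in both lines, 67.3% passed and 36.2% were higher. The apoptosis inhibitor BIRC7 was at 0.271 and 0.424 FPKM in A375 and at 136 and 172 FPKM in SK-MEL-28. The transmembrane glycoprotein GPNMB was at 41.6 and 46.6 FPKM in A375 and at 168 and 167 FPKM in SK-MEL-28. The receptor tyrosine kinase MET (log2 difference -1.96, SE 0.13, edgeR adjusted p = 2.67e-05) and the actin nucleator DIAPH1 (-0.51, SE 0.09) were the 2 that were lower. APEX1, a DNA repair enzyme, did not pass (0.02, SE 0.09, edgeR adjusted p = 0.826).

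Genes known as SOX10 targets did not follow a single direction. Of 11 tested, 3 were expressed in 1 line alone and had to differ, and of the 8 expressed in both, 4 were higher and 2 lower in SK-MEL-28, where 67.3% of all genes expressed in both lines passed. The calcium-binding protein S100B stood at 3.47 and 5.69 FPKM in A375 and at 97.7 and 96.2 FPKM in SK-MEL-28. The receptor ERBB3 stood at 15.4 and 26.6 FPKM in A375 and at 9.36 and 8.41 FPKM in SK-MEL-28, and so was higher in A375 (log2 difference -1.02, SE 0.21, edgeR adjusted p = 0.00431).

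Lysosome and autophagy genes known as targets of TFEB and TFE3 were higher in SK-MEL-28 in 19 of 22 cases and lower in 1, with a median log2 difference of 1.09. All 22 were expressed in both lines. The background over tested genes expressed in both lines was 36.2% higher. Prosaposin (PSAP) stood at 149 and 169 FPKM in A375 and at 563 and 528 FPKM in SK-MEL-28, and cathepsin D (CTSD) at 8.12 and 8.70 against 85.1 and 98.5 FPKM. LAMP1 did not pass (0.06, SE 0.08, edgeR adjusted p = 0.531). The E-box CACGTG, the core shared by this gene network, was present in the RefSeq promoters of 9 of 15 of these genes with a promoter in the table, among them CTSD and LAMP1, and in 7.26% of all promoters. Since the network is known by this core, the share among its genes is no independent evidence. The shares are also not like for like, since some genes have several promoters. Of 13 genes that control where TFEB and TFE3 lie in the cell, all expressed in both lines, 9 were higher and 2 lower in SK-MEL-28, where 36.2% of all genes expressed in both lines were higher. They comprise FLCN, RAG, mTORC1 and 14-3-3 genes, which act to keep these factors in the cytoplasm or control that step, and the calcineurin subunit PPP3CB, which acts to send TFEB to the nucleus (0.71, SE 0.13). The 2 lower genes were the 14-3-3 genes YWHAB (-1.40, SE 0.08) and YWHAG (-1.18, SE 0.08), whereas the 14-3-3 gene YWHAZ was higher (0.98, SE 0.06). The largest difference was that of RRAGD (2.86, SE 0.12), a gene that MITF itself is known to activate. RRAGD was also counted among the MITF targets above, and FLCN, FNIP1, FNIP2 and RRAGC among the 22 lysosome and autophagy genes. All of these were higher in SK-MEL-28, so the lists are not separate counts.

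Genes known to regulate or oppose MITF were split. Of 18 tested, 5 were expressed in 1 line alone, among them SNAI2, IRF4 and ZEB1, and had to differ. Of the 13 expressed in both, 5 were higher and 4 lower in SK-MEL-28 (median log2 difference 0.03), again beside 67.3% of all such genes. The zinc finger repressor SNAI2 was at 0.276 and 0.325 FPKM in A375 and at 75.3 and 81.6 FPKM in SK-MEL-28, and the pigmentation factor IRF4 at 0.0439 and 0.0799 against 22.5 and 26.8 FPKM. ZEB1, linked to the mesenchymal state, was the reverse, at 5.65 and 5.69 FPKM in A375 and at 0.0353 and 0.0550 FPKM in SK-MEL-28, whereas its relative ZEB2 was higher in SK-MEL-28 (log2 difference 2.65, SE 0.16, edgeR adjusted p = 1.73e-05). The AP-1 subunits FOSL1 (-1.60, SE 0.08) and JUN (-1.23, SE 0.09) were lower in SK-MEL-28.

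The comparison of siLINC01291 with siNC asked whether the lineage factors moved when LINC01291 was lowered. Over both lines, with the cell line as a block, 0 of 7 tested factors passed in edgeR, 0 higher and 0 lower, where 0.896% of all tested genes passed, 0.222% higher and 0.674% lower. At an unadjusted p under 0.05 in edgeR there were 3, SOX5, SOX10 and PAX3, and 16.9% of all tested genes. DESeq2 and limma on log2(FPKM + 1) also called 0 of 7, with 3 each at an unadjusted p under 0.05. SOX5 had a log2 change of 0.60 (SE 0.14, edgeR adjusted p = 0.114), SOX10 of 0.35 (SE 0.10, adjusted p = 0.166) and PAX3 of -0.43 (SE 0.11, adjusted p = 0.147). The values for MITF (0.11, SE 0.11), TFE3 (-0.13, SE 0.09), LEF1 (-0.23, SE 0.16) and TFAP2A (0.06, SE 0.10) had edgeR adjusted p between 0.517 and 0.817. The median of the 7 was 0.06 and that of all tested genes 0.01. Without the filter, TFEB (0.23, SE 0.23) and SOX9 (-0.17, SE 0.34) did not pass either (edgeR adjusted p = 0.720 and 0.878).

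Within a line there is no replicate, and the share of genes whose counting interval excludes no change is high: 48.7% of the expressed genes in A375 (22.8% higher, 25.8% lower) and 53.9% in SK-MEL-28 (26.7% higher, 27.2% lower). The counts of factors are read against these shares. In A375, 4 of 7 expressed factors had such an interval, SOX5 and SOX10 above 1 and PAX3 and TFE3 below. In SK-MEL-28 all 7 did, with MITF, SOX10, SOX5 and TFAP2A above and PAX3, LEF1 and TFE3 below.

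SOX5 had the log2 ratio furthest from 0 of the 7 in A375, whereas in SK-MEL-28 PAX3 and LEF1 were further from 0 than SOX5. In A375 it went from 1872 to 3557 counts, in normalised CPM (counts over library size, scaled by TMM factors) from 57.6 to 103, a ratio of 1.78 (95% exact binomial interval 1.69 to 1.89). Only 1.85% of expressed genes in that line had a log2 ratio as high. In SK-MEL-28 its counts were 800 and 1024 and the ratio 1.25 (1.14 to 1.37), which 15.2% of expressed genes matched or passed.

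SOX10 was higher in the siLINC01291 library of both lines, by 42.4% in A375 (normalised CPM 312 to 444, ratio 1.42, interval 1.39 to 1.46) and by 12.8% in SK-MEL-28 (562 to 634, ratio 1.13, interval 1.10 to 1.15). In A375, 5.35% of expressed genes had a log2 ratio as high, and in SK-MEL-28 26.8%. The annotation (GENCODE 29, GRCh38) places SOX10 on the - strand of chromosome 22 from 37970686 to 37987422, inside POLR2F on the opposite strand. The 2 genes share 89 exonic bases, 2.40% of those of SOX10, and strand-specific counting is not stated. POLR2F counts were 3195 and 2900 in A375 and 2433 and 2482 in SK-MEL-28, siNC first. The part of POLR2F reads in the SOX10 counts was not tested.

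PAX3 was lower with siLINC01291 in both lines. Its normalised CPM went from 17.4 to 14.0 in A375 (ratio 0.803, interval 0.709 to 0.908) and from 51.4 to 35.4 in SK-MEL-28 (ratio 0.689, interval 0.635 to 0.748). Ratios as low were seen in 11.3% of expressed genes in A375 and 5.95% in SK-MEL-28. TFE3 was lower by less, with ratios of 0.937 (0.895 to 0.980) in A375 and 0.883 (0.828 to 0.941) in SK-MEL-28.

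MITF itself had 1258 and 1250 counts in A375, a ratio of 0.933 (0.862 to 1.01), and 12770 and 15957 counts in SK-MEL-28, a ratio of 1.22 (1.19 to 1.25). LEF1 had a ratio of 1.07 (0.959 to 1.20) in A375 and of 0.696 (0.662 to 0.732) in SK-MEL-28, where its counts went from 3680 to 2621. TFAP2A had a ratio of 0.974 (0.879 to 1.08) in A375 and of 1.10 (1.04 to 1.16) in SK-MEL-28. These 3 had opposite signs in the lines, and in each case the A375 interval included 1. The difference of the responses could not be tested with 1 library a group.

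**Figure D3:**
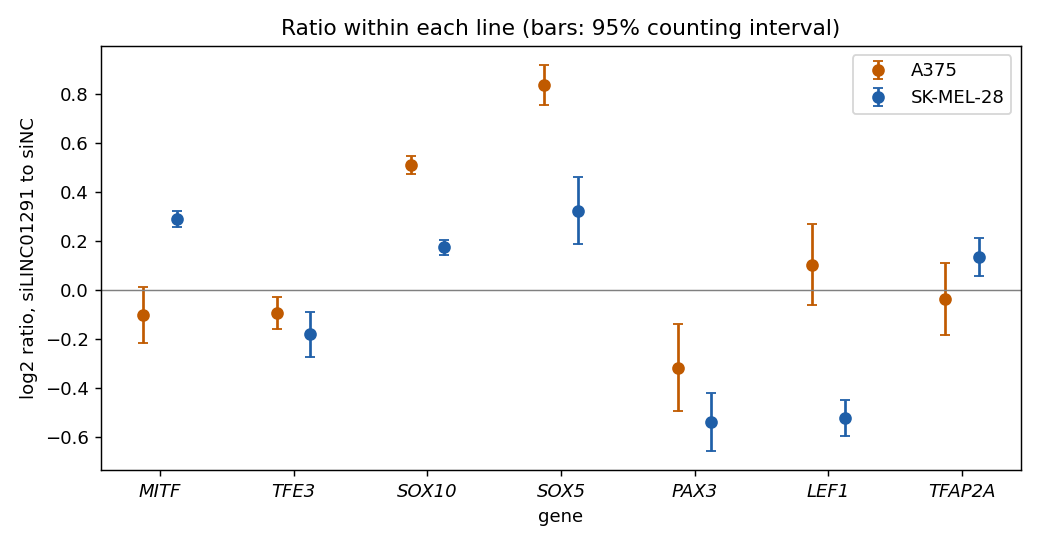
Log2 ratio of siLINC01291 to siNC in normalised counts for the 7 factors, A375 in orange and SK-MEL-28 in blue, with 95% exact binomial intervals for counting error as bars. SOX5 and SOX10 were above 0 and PAX3 and TFE3 below 0 in both lines, and LEF1 was below 0 in SK-MEL-28 with an interval spanning 0 in A375.

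**Figure D4:**
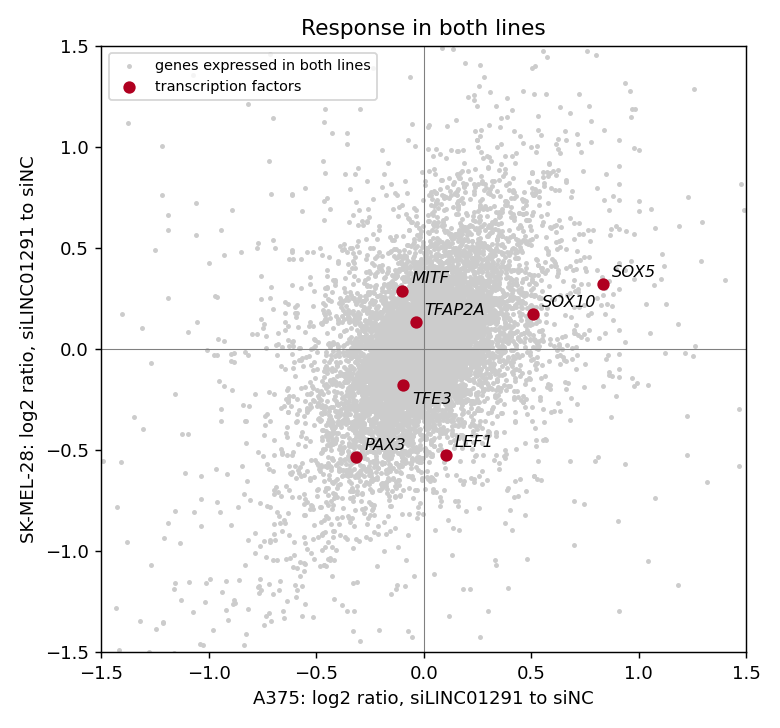
Log2 ratio of siLINC01291 to siNC in A375 (x axis) against SK-MEL-28 (y axis), with grey points for the 10988 genes expressed in both lines, of which 77 lie outside the drawn range, and red points for the 7 factors. SOX5 lies furthest to the right of the factors, at 0.83 in A375, and PAX3 lowest, at -0.54 in SK-MEL-28.

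The listed SOX10 targets were higher beside SOX10 in A375. There, 10 of 10 expressed genes had a log2 ratio above 0, with a median of 0.61 and a range of 0.16 to 0.77, and for 9 the counting interval excluded no change, against 22.8% of expressed genes. Over all expressed genes in A375, 48.7% had a ratio above 0. ERBB3 was at 0.75, S100B at 0.66, the cadherin CDH19 at 0.70, the orphan receptor NR4A1 at 0.77 and the endothelin receptor EDNRB at 0.51. In SK-MEL-28, 6 of 9 were above 0 with a median of 0.05, and ERBB3 (-0.19), GAS7 (-0.19) and S100B (-0.06) were below. Over both lines 0 of 11 passed (edgeR, where 0.896% of all tested genes did); NR4A1 came nearest (0.62, SE 0.11, edgeR adjusted p = 0.0687). One library a group stands behind these values, and the genes were listed with earlier results of these data known.

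The median log2 ratio over pigment genes was 0.19 for the 5 expressed in A375 and 0.19 for the 15 expressed in SK-MEL-28, with 13 of 15 above 0 in SK-MEL-28, where 50.9% of all expressed genes were. OCA2 (0.56) and TRPM1 (0.55) were highest there, and DCT (-0.03) and MC1R (-0.24) were below 0. Other genes known as MITF targets had medians of -0.03 and 0.08. TBX2, a T-box repressor, had log2 ratios of 0.87 (A375) and 0.59 (SK-MEL-28; edgeR adjusted p over both lines = 0.0572), CDK2 at 0.44 and 0.42, and RRAGD at -0.43 and -0.75. None of these lists had a gene that passed over both lines in edgeR, out of 15 and 14 tested.

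**Figure D5:**
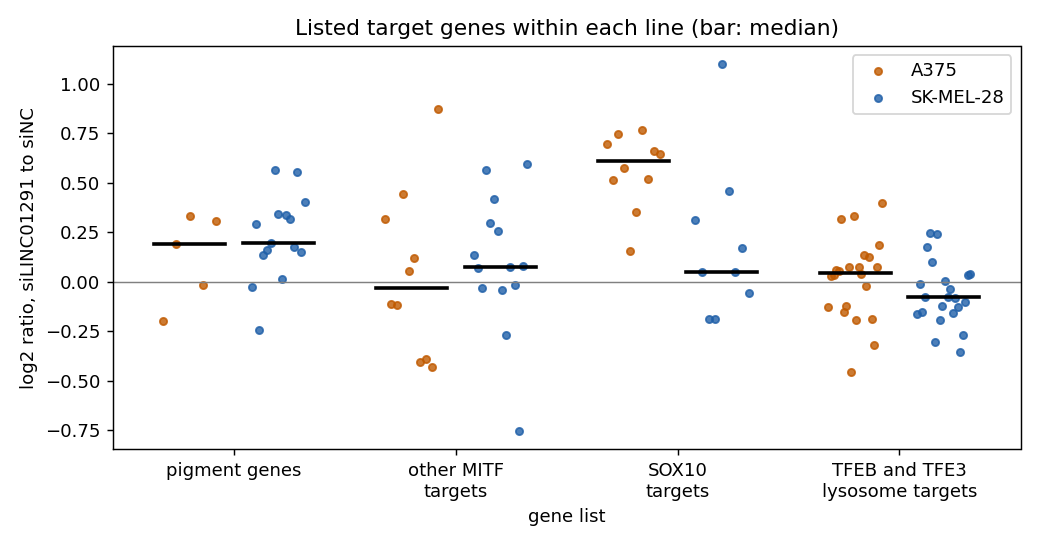
Log2 ratio of siLINC01291 to siNC for listed target genes with at least 1 FPKM in the line, A375 in orange and SK-MEL-28 in blue, 1 point per gene, with the median as a black bar. The SOX10 targets in A375 are all above 0 (median 0.61). The lysosome targets have medians of 0.05 (A375) and -0.08 (SK-MEL-28), with 15 of 22 below 0 in the latter.

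Lysosome genes known as TFEB and TFE3 targets had median log2 ratios of 0.05 (A375) and -0.08 (SK-MEL-28), and 0 of 22 passed in edgeR. For SK-MEL-28, 15 of 22 were below 0. The counting interval was below no change for 12 and above it for 3, against 27.2% of expressed genes lower and 26.7% higher. For A375, 8 of 22 were below 0, with 7 such intervals below and 8 above, against 25.8% and 22.8%. Of the genes that regulate or oppose MITF, 1 of 18 passed: JUN fell, with a log2 change of -0.65 (SE 0.09, edgeR adjusted p = 0.0468), from 30.6 to 20.3 FPKM in A375 and from 11.9 to 7.60 FPKM in SK-MEL-28, where 0.896% of all tested genes passed. JUN did not pass in limma on log2(FPKM + 1) (adjusted p = 0.152) or in edgeR without the cell line term (adjusted p = 1.00), and passed in DESeq2 (adjusted p = 0.00359). JUN codes for an AP-1 subunit linked to low MITF in melanoma. The octamer factor POU3F2 had log2 ratios of 0.39 (A375) and -0.70 (SK-MEL-28). Of the partners and relatives of LEF1, 0 of 9 passed; beta-catenin (CTNNB1) was at 0.13 and 0.21 and TCF7L1 at 0.74 and 1.07 (edgeR adjusted p over both lines = 0.0726).

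The words CTATGAA and TCTATGA were searched in 3' UTRs because an earlier analysis of these same libraries had singled them out among genes that fell, so they are no independent evidence here. All 3 annotated LINC01291 transcripts hold at least 1 of them. In GENCODE 29, 3 of the 9 factors hold a word in a 3' UTR of at least 1 protein-coding transcript, against 17.8% of 10933 tested genes with such a UTR. The 2 shares are not matched for UTR length, and SOX9 and TFEB are not among the tested genes. Of the 9 factors, SOX5 (4719 bases) and MITF (3089 bases), which both hold a word, have the longest 3' UTRs. The sites are shown with 30 bases of the transcript strand and the word in capitals, since PAX3 and SOX5 were the factors furthest from 0 over both lines.

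PAX3: ttcttctctttTCTATGAAaggcagggcaa

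SOX5, first site: gataaaaggtgCTATGAAtagcaacttact

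SOX5, second site: tgcaaggaaaaCTATGAAggccacttaaag

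MITF: cgtactatggaCTATGAAgtgtttatgcaa

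The windows lie on GRCh38 at chr2:222200327-222200356 (- strand), chr12:23531059-23531088 and chr12:23530131-23530160 (- strand) and chr3:69938780-69938809 (+ strand), each in the 3' UTR of a single annotated transcript. PAX3 holds both words, joined as TCTATGAA, and was lower in both lines. SOX5 holds CTATGAA at 2 sites and was higher in both. MITF holds CTATGAA in the 3' UTR of 1 annotated transcript, and the counts do not show whether that form was present. SOX10, SOX9, LEF1, TFAP2A, TFEB and TFE3 hold neither word in an annotated 3' UTR.

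Antisense genes overlap some of the other factors, and reads from both strands could be counted together. TFAP2A shares 941 exonic bases (11.4%) with TFAP2A-AS2, which had 59 to 75 counts a library, and 438 with TFAP2A-AS1 (21 to 64 counts), against 736 to 2949 counts for TFAP2A. LEF1 shares 279 exonic bases (5.20%) with LEF1-AS1, which had 9 and 6 counts in A375 and 145 and 148 in SK-MEL-28. LEF1-AS1 was thus also higher in SK-MEL-28, and its part in the LEF1 counts was not tested. The other overlapping genes shared no exonic base with a factor.

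Genes with the most similar pattern were sought by Euclidean distance of log2 CPM, centred over the 4 libraries, among 7744 genes with at least 5 FPKM in at least 2 libraries; with 4 libraries this is a description only. Nearest to MITF were GYPC (distance 0.05), GRAMD4 (0.06) and RAB32 (0.12). RAB32, a small GTPase of melanosome transport, stood at 16.2 and 16.3 FPKM in A375 and at 161 and 211 FPKM in SK-MEL-28. Nearest to SOX10 were CERCAM (0.07), ERC1 (0.07) and CTSZ (0.09), nearest to PAX3 were RND3 (0.08), NOTCH2 (0.12) and ODC1 (0.15), and nearest to LEF1 were ADAM23 (0.12), FCRLA (0.17) and PALLD (0.23). TFAP2A was nearest to LPIN1 (0.04), WHRN (0.08) and ATP6V1B2 (0.09), and TFE3 to ARMC7, GLUD1 and SNHG4 (0.01 to 0.02). SOX5 had the most distant neighbours, GNG4 (0.25), LAMA4 (0.27) and SLC26A2 (0.28).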

How the data were processed

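Values of 4 RNA sequencing libraries were used. Per the labels' protocols, mRNA was enriched with oligo(dT) beads, and the authors used fastp for trimming, HISAT2 for alignment, StringTie to add new transcripts and HTSeq for counting. The submitters' processing notes list hg19 as a build, and DESeq2 and edgeR as tools with no role stated; coordinates here come from GENCODE 29 and RefSeq on GRCh38. The deposited counts are whole numbers, not normalised. In the deposited CPM, counts are divided by a total slightly above that of the listed genes. In the deposited FPKM, these CPM are divided by 1 length per gene. The TPM scaled by the authors, per the file headers, entered no comparison.

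Log2 ratios within a line used TMM factors and a prior count of 2 (edgeR 4.0.16, R 4.3.3). The quasi-likelihood test of edgeR was fitted over 13501 genes that reached 1 FPKM in 2 or more libraries, with cell line and treatment as terms and Benjamini-Hochberg adjustment at 0.05; the SE is the log2 change over the root of F. The pairing comes from the cell line. Alternatives used DESeq2 1.42.0, limma 3.58.1 on log2(FPKM + 1), other size factors, no filter and fewer terms. The fit was tested on simulated data. Intervals are exact binomial (Clopper-Pearson). Drawings used matplotlib 3.10.9.

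The factors and gene lists were chosen with earlier results of these data known. Genes named beside the 9 factors are the 4 of each list with the highest mean FPKM, those past a test, overlapping genes, the 3 nearest by pattern and LINC01291. NR4A1 and POU3F2 lie outside this rule and were named after their values were seen.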

Additional observations from a re-analysis of the deposited data

Results flagged for a closer look

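MITF, LEF1 and TFAP2A had opposite signs in the 2 lines with siLINC01291, and the difference between the lines was not tested. The log2 ratio of MITF was -0.10 in A375 and 0.29 in SK-MEL-28. That of LEF1 was 0.10 in A375 and -0.52 in SK-MEL-28. That of TFAP2A was -0.0374 in A375 and 0.13 in SK-MEL-28. In all 3 the counting interval of the A375 ratio included no change.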

How the results depend on the processing

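The count of 0 of 7 factors past the threshold for siLINC01291 against siNC was the same under all 5 alternatives. So was the count of 7 of 7 for SK-MEL-28 against A375, except that 9 of 9 passed when no filter was used. That fit called 5936 genes higher and 5983 lower in SK-MEL-28 of 18175, and SOX9, listed through A375 alone, had to be lower. No factor changed sign or side of the threshold in 35 alternative values of the treatment or in those of the line difference; of 14 line differences from a single pair of libraries, which have no test, 10 moved by more than 1 SE and none changed sign. SOX5 came nearest to a call for the treatment, with adjusted p between 0.0569 and 1.00 over the fits. Without the replicate block, that is without the cell line term, edgeR called 0 of 7 factors and 0 of all genes, with 51 genes at an unadjusted p under 0.05. Genes called over all 13501 numbered 30 higher and 91 lower in edgeR, 99 and 203 in DESeq2 and 0 and 0 in limma, which had 2023 at an unadjusted p under 0.05. Without the filter edgeR called 146 and 238 of 18175. Within a line, 3 of 42 alternative values left the counting interval, all on log2(FPKM + 1). Leaving out a library leaves no residual degree of freedom beside the cell line term, so only single-pair values are given. The depth limits SOX9 in SK-MEL-28 (1 and 4 counts) and TFEB.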

Other observations

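Relatives of the lineage factors also differed between the lines. Of 9 tested SOX, PAX, AP-2 and MiT relatives, 5 were expressed in 1 line alone and had to differ, among them SOX2 and SOX11. Of the 4 expressed in both lines, 3 were higher and 1 lower in SK-MEL-28 (edgeR adjusted p under 0.05, where 67.3% of all tested genes expressed in both lines passed). TFAP2C, the paralog of TFAP2A, was higher in A375, at 58.4 and 66.2 FPKM against 9.74 and 12.3 FPKM. SOX2, linked to stem cells, stood at 2.76 and 3.42 FPKM in A375 and at 0.0540 and 0.0812 FPKM in SK-MEL-28, and SOX11 at 6.19 and 6.76 against 0.0188 and 0.0151 FPKM. SOX13, of the same subgroup as SOX5, was higher in SK-MEL-28, at 2.71 and 2.87 against 12.1 and 20.4 FPKM. Of the receptors of the low-MITF state, AXL stood at 125 and 119 FPKM in A375 and at 0.667 and 0.516 FPKM in SK-MEL-28, and NGFR at 50.1 and 52.4 against 1.46 and 1.12 FPKM. None of these 9 relatives and 7 listed receptors passed for siLINC01291 against siNC in edgeR.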
